A study of Mus musculus with 48 samples.

Results

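Described here are 4 inflammation-linked genes of mouse skin phagocytes, the acute phase proteins Saa3 and Lcn2 and the stefins Stfa2 and Stfa3. They were taken as the probe sets that carry exactly 1 of these gene symbols, which gave 4 members of 15591 genes tested and 35556 probe sets on the array. Each member had 1 such probe set, so the rule that the brightest probe set stands for a gene did not choose between probe sets. The 4 genes were chosen by their log2 changes under imiquimod in these same arrays. Their levels and changes are therefore a description. An adjusted p given for a member is its row of the fit over all genes, shows only the size of a difference against the spread between arrays, and is no independent test of the choice.

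The ears of mice gave 6 phagocyte populations, separated by flow cytometric sorting, whose RNA was measured on 48 Affymetrix mouse gene arrays, 16 groups of 3. The gates in the labels were CD11b+CD64lowCCR2+Ly-6ChiMHCIIlow for dermal monocytes, CD11b+CD64lowCCR2+Ly-6ChighMHCII+ for dermal Ly-6Chigh monocyte-derived dendritic cells (moDC), and CD11b+CD64hiCCR2lowLy-6Clow with MHCIIlow or MHCIIhi for the dermal macrophages. Dermal CD11b+ conventional dendritic cells (CD11b DC) were sorted as CD11b+CD64-Ly-6C-MHCII+ CD24- and epidermal Langerhans cells as CD11b+MHCII+CD24+. Mice of 8 to 11 weeks were untreated or received 5% imiquimod cream (Aldara) daily on the ears, at 7 mg of imiquimod per ear side, within a 14-day course. Imiquimod is a Toll-like receptor 7 agonist that causes psoriasis-like skin inflammation in mice. Cells were taken untreated, at day 5 or at day 11. Monocytes have no day 11 group, MHCIIhi macrophages have no day 5 group, and the other 4 populations have all 3 conditions. The strain is not given in the labels, no group is described as carrying an engineered allele, and untreated is not stated to mean a vehicle cream.

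The acute phase response is the rise of a set of secreted proteins that follows interleukin-1, interleukin-6 and Toll-like receptor signals, mainly through the transcription factors NF-kB, C/EBP and STAT3. Serum amyloid A3 (Saa3) is the mouse serum amyloid A made largely outside the liver, by macrophages, adipocytes and epithelia, and lipocalin 2 (Lcn2) withholds iron from bacteria by binding their siderophores and is also a granule protein of neutrophils. Stefins, the type 1 cystatins, are small cytosolic inhibitors of papain-like cysteine proteases such as the lysosomal cathepsins. Mice carry a cluster of stefin A genes with close copies, among them Stfa2 and Stfa3, whereas humans have a single stefin A gene that is expressed in epidermis.

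The promoter windows of the 4 genes are shown because the members rose together in some cells, and because Stfa2 and Stfa3, close neighbours, differ in where they rose. All are RefSeq sequence of GRCm38.p6 from the minus strand, 300 bases each, running from 250 bases before to 50 bases after the start of the gene. The windows are chr7:46715627-46715926 for Saa3, chr2:32387690-32387989 for Lcn2, chr16:36408314-36408613 for Stfa2 and chr16:36455343-36455642 for Stfa3. Capitals mark letters that match a searched motif.
Saa3: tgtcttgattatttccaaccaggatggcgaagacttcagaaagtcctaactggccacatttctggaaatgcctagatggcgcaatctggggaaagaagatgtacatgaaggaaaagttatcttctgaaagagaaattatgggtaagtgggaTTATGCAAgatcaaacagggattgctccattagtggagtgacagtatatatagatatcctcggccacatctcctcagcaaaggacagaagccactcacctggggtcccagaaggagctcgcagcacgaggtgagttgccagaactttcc
Lcn2: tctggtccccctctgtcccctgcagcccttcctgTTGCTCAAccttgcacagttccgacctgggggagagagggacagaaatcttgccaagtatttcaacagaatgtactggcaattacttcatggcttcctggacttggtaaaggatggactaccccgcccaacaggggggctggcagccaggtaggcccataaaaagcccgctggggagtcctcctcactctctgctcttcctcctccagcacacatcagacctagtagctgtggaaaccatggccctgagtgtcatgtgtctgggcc
Stfa2: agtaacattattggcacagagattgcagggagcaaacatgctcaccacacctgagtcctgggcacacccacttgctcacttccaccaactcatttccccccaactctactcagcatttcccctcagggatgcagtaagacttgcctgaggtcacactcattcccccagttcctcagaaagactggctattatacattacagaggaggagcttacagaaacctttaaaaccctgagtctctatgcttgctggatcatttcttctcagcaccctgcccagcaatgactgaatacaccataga
Stfa3: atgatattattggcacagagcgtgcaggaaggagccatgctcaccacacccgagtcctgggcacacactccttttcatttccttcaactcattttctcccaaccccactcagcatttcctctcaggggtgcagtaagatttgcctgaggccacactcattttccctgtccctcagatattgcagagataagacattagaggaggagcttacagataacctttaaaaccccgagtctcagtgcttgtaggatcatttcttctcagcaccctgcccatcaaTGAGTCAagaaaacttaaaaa
The motifs searched on both strands were C/EBP (TTGCNNAA), AP-1 (TGANTCA), STAT (TTCNNNGAA), the TATA box (TATAAA) and the NF-kB motif. Saa3 held the C/EBP letters as TTATGCAA, read on the opposite strand, 99 bases before the start. Lcn2 held them as TTGCTCAA, 216 bases before the start. Stfa3 held the AP-1 letters as TGAGTCA inside the window's transcribed end, at bases 280 to 286 of the 300. Stfa2 held none of the 5 motifs. Of 32851 promoters of the same length, 10.8% held the C/EBP letters, 7.81% the AP-1 letters, 8.3% the STAT letters, 8.46% the NF-kB letters and 13.6% the TATA letters. The Stfa2 and Stfa3 windows were 80.9% identical, with 245 identical letters in 303 aligned columns, against 43.0% to 46.4% for the other 5 pairs. The 2 stefin genes lie 42.2 kb apart in the chromosome 16 cluster (Stfa2 at 36403946 to 36408363, Stfa3 at 36450537 to 36455392). Saa3 lies on chromosome 7 (46711998 to 46719615) beside Saa4, Saa1 and Saa2, and its window starts from a transcript inside that interval. Lcn2 lies on chromosome 2 (32384637 to 32387739).

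Levels below are the deposited log2 expression values, on which 1 unit is a doubling of signal, and changes are differences of 2 group means on that scale, ± SE, from 1 limma fit over all 48 arrays (n = 3 arrays in each group). A gene "rose" or "fell" where its Benjamini-Hochberg adjusted p, over 15591 genes, was under 0.05. Values of a group are given in the order of the replicate numbers in the sample titles. Whether the replicates of a group are separate mice is not in the labels, and the p-values then measure only the spread between these samples, which may be technical. The probe sets differ in affinity, so no level of a gene is set against the level of another. In bulk sorted populations, more cells of a responding type and more RNA per cell cannot be told apart.

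The arrays were alike in quality, with median log2 values of 4.10 to 4.37 and mean correlations with their own group of 0.932 to 0.986. Replicate 2 of untreated monocytes (0.932) and replicate 2 of day 11 CD11b DC (0.945) stood farthest apart, and without both only 1 call of a member changed, that of the Lcn2 response at day 11 given below. Among markers of the labelled cell types, group means of Cd207 (langerin) were 10.7 to 11.2 in Langerhans cells and at most 6.43 elsewhere. The other 2 Langerhans markers were less exclusive, since Epcam and Cdh1 (E-cadherin) averaged 7.06 and 9.81 in day 5 CD11b DC against 4.44 and 7.10 untreated. The macrophage receptor Mertk was highest in the macrophage groups (means of 7.00 to 8.24, at most 5.05 elsewhere), and Plac8 was highest in monocytes (11.7 and 11.9). Sums over these marker lists were less exclusive. That of Mertk, Fcgr1 and Adgre1 averaged 11.0 to 11.3 in the macrophage groups and 10.5 in day 5 moDC. That of Plac8 and Ccr2 averaged 12.1 and 12.3 in monocytes, 11.4 in day 5 moDC and 10.1 in untreated CD11b DC. In the sample titles a letter follows the common prefix. For dermal cells each of the 3 conditions has its own letter, and for Langerhans cells day 11 has a different one from the rest. A batch that followed this letter cannot be told apart from treatment there. Untreated Langerhans arrays also carry another letter than untreated dermal arrays. Such a batch therefore cannot be told apart from population in their comparison, or from a difference between Langerhans and dermal responses.

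All 4 members passed the filter on low values, a log2 value above 3.77 on at least 3 arrays. Saa3 exceeded it on 28 of 48 arrays, Lcn2 on 46, Stfa3 on 38 and Stfa2 on 11. Of those 11 arrays, 6 were of Langerhans cells, all treated, and 5 were of dermal cells. The filter keeps genes with some raised arrays, so nothing is read from all 4 members passing it. At day 5, 12 of 20 pairs of member and population rose and 0 fell. By population, 3 of 4 members rose in monocytes (6.43% of all genes rose there), 2 in moDC (5.68%), 2 in MHCIIlow macrophages (7.22%), 1 in CD11b DC (3.01%) and 4 in Langerhans cells (8.64%). At day 11, 10 of 20 pairs rose and 0 fell. Here 1 of 4 members rose in moDC (2.58% of all genes), 2 in MHCIIlow macrophages (4.33%), 3 in MHCIIhi macrophages (7.45%), 1 in CD11b DC (3.55%) and 3 in Langerhans cells (9.31%). By gene, Stfa3 rose in 10 of 10 comparisons with untreated cells, Saa3 in 6, Lcn2 in 4 and Stfa2 in 2. The members were picked for rising, so nothing is read from these counts against the background shares. The shares of all genes that fell, against which the counts of other gene lists below can be read, were 6.31% in monocytes, 5.61% in moDC, 6.95% in MHCIIlow macrophages, 4.96% in CD11b DC and 7.49% in Langerhans cells at day 5. At day 11 they were 5.84% in moDC, 5.39% in MHCIIlow and 7.49% in MHCIIhi macrophages, 6.79% in CD11b DC and 8.40% in Langerhans cells.

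**Figure D1:**
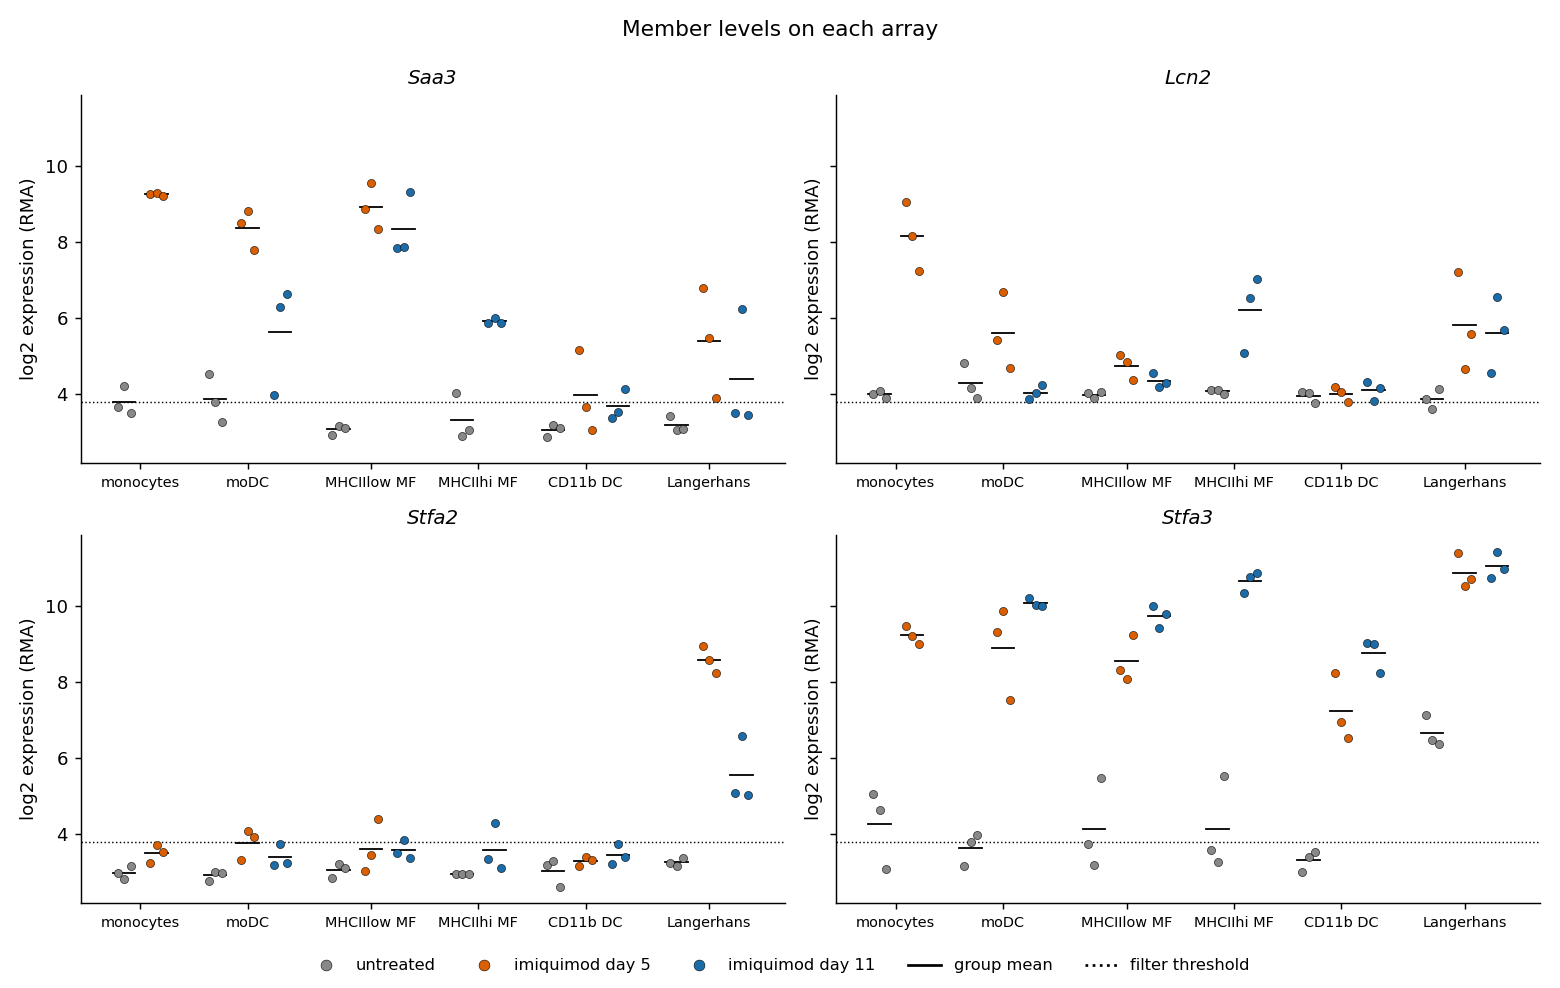
Deposited log2 expression (RMA, y axis) of Saa3, Lcn2, Stfa2 and Stfa3 on each of the 48 arrays, by population (x axis; moDC, monocyte-derived dendritic cells; MF, macrophages) and condition, with points for arrays, black bars for group means of 3 arrays and a dotted line for the filter threshold of 3.77. Saa3 is high in day 5 monocytes, moDC and MHCIIlow macrophages, Stfa2 only in the 6 treated Langerhans arrays, and Stfa3 on every treated array, with a raised untreated level in Langerhans cells.

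Saa3 showed its steepest rises in the monocytic cells and in the MHCIIlow macrophages. In monocytes it stood at 3.64, 4.20 and 3.50 untreated and at 9.27, 9.29 and 9.21 at day 5. The day 5 arrays were nearly equal and lay far above every untreated array. The rise was 5.48 ± 0.63 on the log2 scale, or 44.5-fold (adjusted p = 4.25e-07). In MHCIIlow macrophages Saa3 read 2.91, 3.16 and 3.09 untreated, 8.88, 9.55 and 8.34 at day 5, and 7.83, 7.87 and 9.31 at day 11. All 6 treated arrays stood above all untreated ones, and the days overlapped. The rise was 5.87 ± 0.63 at day 5 (58.4-fold, adjusted p = 3.15e-08) and 5.28 ± 0.63 at day 11 (38.8-fold, adjusted p = 2.53e-07).

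In moDC the Saa3 rise was seen at day 5 and was smaller at day 11. The untreated arrays read 4.52, 3.78 and 3.25, the day 5 arrays 8.50, 8.80 and 7.79, and the day 11 arrays 3.96, 6.29 and 6.63. Day 5 lay clear of both other groups, while replicate 1 at day 11 lay within the untreated range. Saa3 rose by 4.51 ± 0.63 at day 5 (22.8-fold, adjusted p = 1.2e-05), and the day 11 change was +1.77 ± 0.63 (adjusted p = 0.0721). Without replicate 1 of day 11 that change was +2.61 (adjusted p = 0.0114). From day 5 to day 11 Saa3 fell by 2.74 on the log2 scale (SE 0.63, adjusted p = 0.0203), where 0.866% of all genes fell. That fall did not pass the test in a fit of only the groups compared (adjusted p = 0.22), without moDC day 5 replicate 2 (0.0709) or 3 (0.109), or without moDC day 11 replicate 1 (-1.91, adjusted p = 0.149).

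MHCIIhi macrophages, profiled at day 11 only, showed a narrower Saa3 response. They read 4.01, 2.88 and 3.04 untreated and 5.87, 5.99 and 5.87 at day 11. The 3 treated arrays were nearly equal and above all untreated ones, a rise of 2.60 ± 0.63 (6.07-fold, adjusted p = 0.0036). Summed keratinocyte markers also moved in these cells, from 11.4 to 12.8 on the untreated arrays to 12.8 to 13.6 at day 11, and their part in the result was not tested.

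CD11b DC held Saa3 near the filter threshold in all conditions. They read 2.86, 3.16 and 3.10 untreated, 5.15, 3.66 and 3.04 at day 5, and 3.35, 3.51 and 4.13 at day 11. A single day 5 array, replicate 2, was raised, and the day 5 and untreated groups overlapped. The changes were +0.91 ± 0.63 at day 5 (adjusted p = 0.441) and +0.63 ± 0.63 at day 11 (adjusted p = 0.604).

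In Langerhans cells Saa3 varied from array to array. It read 3.42, 3.05 and 3.06 untreated, 6.79, 5.48 and 3.89 at day 5, and 3.50, 6.23 and 3.45 at day 11. Every treated array exceeded every untreated one, yet at day 11 replicate 2 alone was clearly raised. The rise at day 5 was 2.21 ± 0.63 (4.63-fold, adjusted p = 0.0107), and without day 5 replicate 2 the change was +1.51 (adjusted p = 0.157). At day 11 the change was +1.22 ± 0.63 (adjusted p = 0.206). The arrays with most Saa3 also had the most signal of the monocyte markers Ccr2 and Plac8, whose sum was 9.19, 8.74 and 8.36 at day 5 and 4.94, 7.42 and 6.29 at day 11, against 4.37 to 4.65 untreated. The same 2 arrays, replicate 2 of each day, had the highest summed keratinocyte signal of their groups (13.8 and 13.9). The part of other cells in these values was not tested.

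In order of group means, Saa3 ran from day 5 monocytes (9.26) through MHCIIlow macrophages at day 5 (8.92), moDC at day 5 (8.36) and MHCIIlow macrophages at day 11 (8.33), neighbours whose arrays overlap. A gap followed, and MHCIIhi macrophages at day 11 (5.91), moDC at day 11 (5.62), Langerhans cells at day 5 (5.39) and day 11 (4.39) came next, again overlapping. The other 8 groups lay between 3.04 and 3.95. The response of Saa3 was unequal between the 5 populations profiled, by an F test of equal change at day 5 (adjusted p = 0.000131, 12.9% of all genes called) and at day 11 (adjusted p = 0.0019, 10.7% called). Untreated, Saa3 did not pass the test in any of the 5 pairs of populations compared.

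Lcn2 rose in fewer populations than Saa3, and most in monocytes. Untreated monocytes read 3.99, 4.06 and 3.90, and day 5 monocytes 9.05, 8.15 and 7.23. No arrays overlapped, and the rise was 4.16 ± 0.49 (17.9-fold, adjusted p = 5.65e-07). The day 5 monocyte arrays spread more in Lcn2 (SD 0.91) than in Saa3 (SD 0.04).

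In moDC and MHCIIlow macrophages Lcn2 was raised less at day 5. In moDC it read 4.81, 4.14 and 3.88 untreated, 5.40, 6.69 and 4.67 at day 5, and 3.86, 4.00 and 4.22 at day 11. Day 5 replicate 4 lay within the untreated range, and the day 11 arrays were no higher than the untreated ones. The day 5 change was +1.31 ± 0.49 (adjusted p = 0.0758). It passed the test under quantile normalisation (adjusted p = 0.0482), with array weights (0.0453) and without day 5 replicate 4 (+1.77, adjusted p = 0.0295). From day 5 to day 11 the change was -1.56 ± 0.49 (adjusted p = 0.121). No arrays overlapped, as for 17.4% of all genes in that comparison. In MHCIIlow macrophages Lcn2 read 4.00, 3.87 and 4.04 untreated, 5.01, 4.83 and 4.35 at day 5, and 4.55, 4.18 and 4.27 at day 11. Treated arrays were above untreated ones by a small margin, with changes of +0.76 ± 0.49 at day 5 (adjusted p = 0.349) and +0.36 ± 0.49 at day 11 (adjusted p = 0.753). In a fit of only the groups compared, the day 5 change of the same size had an adjusted p = 0.0382.

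MHCIIhi macrophages had a clear Lcn2 rise at day 11. They read 4.09, 4.09 and 4.00 untreated and 5.07, 6.52 and 7.03 at day 11. All treated arrays were above all untreated ones, a rise of 2.15 ± 0.49 (4.43-fold, adjusted p = 0.00196). The summed keratinocyte markers on the same day 11 arrays stood in the same order, 12.8, 13.4 and 13.6, and their part in the result was not tested. Of the 18 keratinocyte markers tested there, 8 rose and 0 fell, Krt16 by 3.22 ± 0.61 and Krt1 by 2.63 ± 0.66.

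CD11b DC held Lcn2 flat. They read 4.04, 4.01 and 3.75 untreated, 4.18, 4.04 and 3.79 at day 5, and 4.30, 3.81 and 4.14 at day 11. The 3 groups overlapped, with changes of +0.07 ± 0.49 (adjusted p = 0.96) and +0.15 ± 0.49 (adjusted p = 0.896).

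In Langerhans cells Lcn2 read 3.87, 3.60 and 4.12 untreated, 7.21, 4.65 and 5.58 at day 5, and 4.53, 6.56 and 5.66 at day 11. Every treated array exceeded every untreated one, and replicate 2 was the highest on both days, as for Saa3. The rise was 1.95 ± 0.49 at day 5 (3.86-fold, adjusted p = 0.00342) and 1.72 ± 0.49 at day 11 (3.3-fold, adjusted p = 0.01). Without day 5 replicate 2 the first was +1.25 (adjusted p = 0.0926), and without day 11 replicate 2 the second was +1.23 (adjusted p = 0.125).

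By group mean Lcn2 was highest in day 5 monocytes (8.14). Their lowest array (7.23) was above every array of other groups, but barely above Langerhans day 5 replicate 2 (7.21). MHCIIhi macrophages at day 11 (6.21), Langerhans cells at day 5 (5.81), moDC at day 5 (5.59) and Langerhans cells at day 11 (5.59) followed, and their arrays overlapped. The remaining 11 groups lay from 3.86 to 4.73. The response differed between populations at day 5 (F test, adjusted p = 0.000348). At day 11 it stood at an adjusted p = 0.0416, which moved to 0.0531 without the filter, to 0.0599 without the 2 arrays farthest apart, and up to 0.106 on leaving out single arrays.

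**Figure D2:**
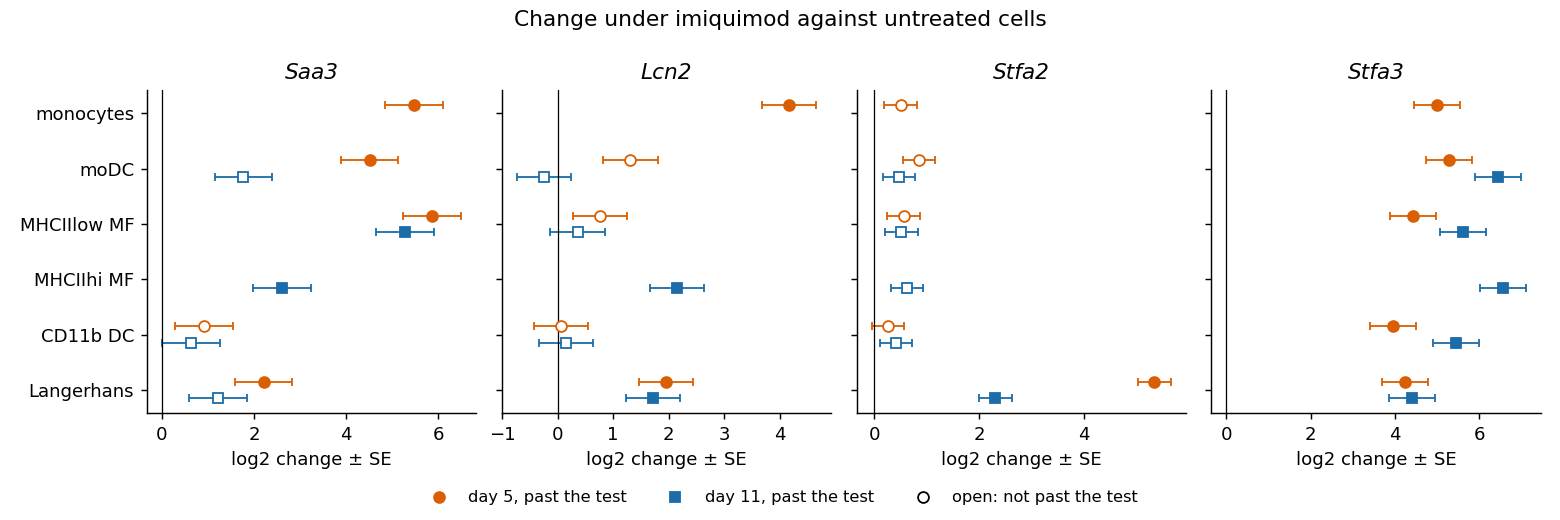
Log2 change against untreated cells (x axis) ± SE from the limma fit, by population (y axis), at day 5 (orange circles) and day 11 (blue squares), with n = 3 arrays in each group; filled symbols passed an adjusted p of 0.05 and open ones did not. Stfa3 is filled in all 10 comparisons, Saa3 in 6, Lcn2 in 4 and Stfa2 in 2.

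Because neutrophils carry Lcn2 and stefins, 14 neutrophil markers were followed beside the members. On the array 13 were present with a single symbol. Of these, 8 lay above the filter threshold on all 3 arrays in untreated monocytes, 9 in day 5 monocytes and 5 in untreated Langerhans cells. Cxcr2, Retnlg, Cd177 and Mcemp1 count in the sums below and are not given singly. The granule and lineage genes Ly6g (group means 2.55 to 2.91) and Ltf (3.01 to 3.34) lay below the filter threshold in every group. Ngp, Camp, Elane and Mpo had group means between 3.51 and 4.38 in all groups, treated or not. Markers that monocytes share, such as Mmp8, a neutrophil collagenase, and the receptors Csf3r and Il1r2, were high there. Mmp8 averaged 8.18 in untreated and 9.43 in day 5 monocytes. The summed neutrophil level was higher under treatment in monocytes (11.1 to 11.3 untreated, 11.7 to 11.99 at day 5) in moDC at day 5 (10.9 to 11.0 untreated, 11.5 to 11.7) and in CD11b DC at day 5 (10.8 to 11.0 untreated, 11.3 to 11.7). It was 8.23 to 8.54 on all 9 MHCIIlow macrophage arrays, and in Langerhans cells it was lower at day 5 (11.6 to 11.8) than untreated (11.8 to 12.1). The untreated Langerhans mean, 11.9, was the highest of the 16 groups. Of the 11 markers tested, 3 rose at day 5 in monocytes and in Langerhans cells, 2 in moDC and in CD11b DC and 1 in MHCIIlow macrophages. At day 11, 2 rose in Langerhans cells, 1 in CD11b DC, 1 in MHCIIhi macrophages, where 1 also fell, and 0 in moDC and MHCIIlow macrophages. Their part in the members' changes was not tested.

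**Figure D3:**
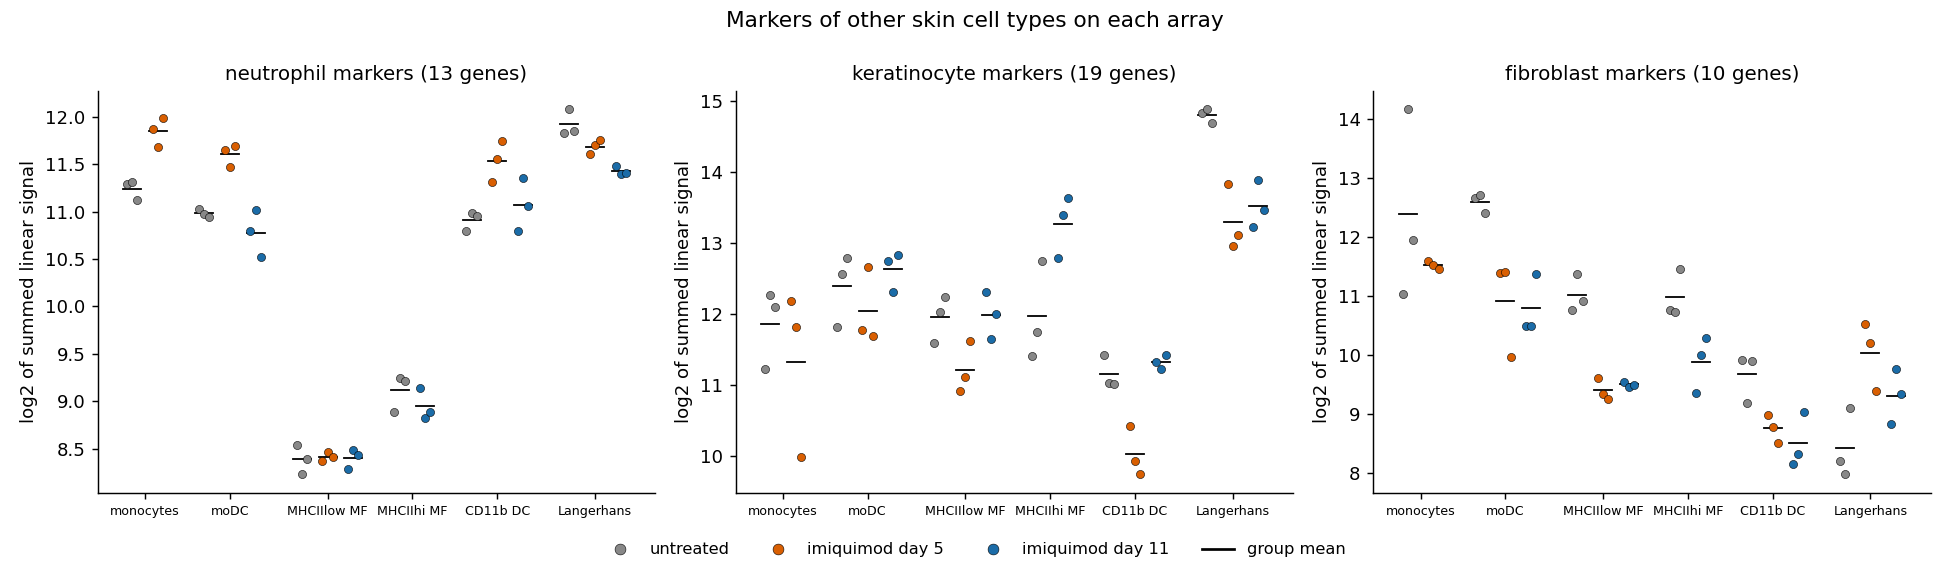
Log2 of the summed linear signal (y axis) of 13 neutrophil, 19 keratinocyte and 10 fibroblast markers on each array, by population (x axis) and condition, with points for arrays and black bars for group means. The 3 panels have separate y axes; the keratinocyte sum rises in MHCIIhi macrophages and falls in Langerhans cells under imiquimod.

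Of the stefins, Stfa3 rose in every population on each treated day that was profiled. In monocytes it read 5.04, 4.63 and 3.06 untreated and 9.47, 9.21 and 8.99 at day 5, a rise of 4.98 ± 0.55 (31.6-fold, adjusted p = 2.76e-07). In moDC the arrays read 3.16, 3.77 and 3.96 untreated, 9.32, 9.87 and 7.51 at day 5, and 10.21, 10.02 and 10.004 at day 11. Each treated array lay far above each untreated one in both populations. In moDC the rise was 5.27 ± 0.55 at day 5 (38.7-fold, adjusted p = 8.64e-08) and 6.45 ± 0.55 at day 11 (87.5-fold, adjusted p = 5.13e-10).

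Both macrophage populations had more Stfa3 under imiquimod. MHCIIlow macrophages read 3.74, 3.16 and 5.46 for Stfa3 untreated, 8.32, 8.07 and 9.22 at day 5, and 10.01, 9.43 and 9.79 at day 11. MHCIIhi macrophages read 3.56, 3.26 and 5.51 untreated and 10.3, 10.8 and 10.9 at day 11. Untreated replicate 4 was the highest of its group in both macrophage populations, and no treated array came near it. Stfa3 rose by 4.42 ± 0.55 (21.4-fold, adjusted p = 4.86e-07) and 5.62 ± 0.55 (49.2-fold, adjusted p = 4.31e-09) in MHCIIlow cells, and by 6.55 ± 0.55 in MHCIIhi cells (93.6-fold, adjusted p = 1.18e-10).

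CD11b DC, in which no other member rose, also had more Stfa3 under imiquimod. They read 2.997, 3.39 and 3.51 untreated, 8.24, 6.95 and 6.53 at day 5, and 9.03, 8.99 and 8.23 at day 11. The treated arrays were clear of the untreated ones, with rises of 3.94 ± 0.55 (15.4-fold, adjusted p = 4.69e-06) and 5.45 ± 0.55 (43.8-fold, adjusted p = 1.18e-08). Markers of other cells moved beside Stfa3 in CD11b DC. The summed signal of the Langerhans markers Cd207, Epcam and Cdh1 was 7.26 to 8.00 on the untreated arrays, 9.995 to 10.2 at day 5 and 8.66 to 10.3 at day 11, against 11.8 to 12.2 in Langerhans cells. Of these 3 markers, 2 rose and 0 fell on each day. Cd207 itself read 4.94 to 6.32 untreated, 6.38 to 6.49 at day 5 and 4.85 to 8.11 at day 11. The monocyte marker Plac8 averaged 4.99 untreated, 8.65 at day 5 and 7.16 at day 11. Its sum with the other monocyte marker, Ccr2, overlapped between untreated arrays (9.997 to 10.2) and day 5 (9.99 to 10.1). At day 11 that sum was 10.3 to 10.4. The summed neutrophil markers were higher at day 5, as given above. The part of other cells in the Stfa3 values was not tested.

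Langerhans cells had Stfa3 before treatment. They read 7.13, 6.46 and 6.35 untreated, 11.4, 10.5 and 10.7 at day 5, and 10.8, 11.4 and 11.0 at day 11. The untreated Langerhans arrays were above every untreated dermal array, of which the highest read 5.51. Their title letter differs too, and a batch that followed it cannot be told apart from population here. Untreated Langerhans cells exceeded untreated CD11b DC by 3.35 ± 0.55 (adjusted p = 7.15e-06, 23.1% of all genes called) and untreated MHCIIlow macrophages by 2.53 ± 0.55 (adjusted p = 0.000374, 26.9% called). These were the only calls of a member among the 20 pairs of member and untreated populations. In the pairs moDC and monocytes (3.43% of genes called), MHCIIhi and MHCIIlow macrophages (0.898%), and CD11b DC and moDC (3.57%), no member was called. Under imiquimod Stfa3 rose by 4.23 ± 0.55 (18.8-fold, adjusted p = 2.11e-07) and 4.41 ± 0.55 (21.2-fold, adjusted p = 1.08e-07) from this higher base.

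For Stfa3 the test of unequal response between populations did not pass at day 5 (F test, adjusted p = 0.648) or day 11 (0.236), which does not show that the responses were equal. The Langerhans change minus the mean change of the 4 dermal populations was -0.42 ± 0.61 at day 5 (adjusted p = 0.743) and -1.61 ± 0.61 at day 11 (0.0811). The day 11 difference passed with array weights (adjusted p = 0.0344) and without untreated replicate 4 of MHCIIlow (0.0334) or MHCIIhi macrophages (0.0299). Day 11 means were above day 5 means in all 4 populations with both days, by 1.18 in moDC, 1.20 in MHCIIlow macrophages, 1.51 in CD11b DC and 0.18 in Langerhans cells, with adjusted p from 0.235 to 0.991. The highest group means, Langerhans cells at day 11 (11.1) and day 5 (10.9) and MHCIIhi macrophages at day 11 (10.7), had overlapping arrays. Every treated group mean was above that of untreated Langerhans cells (6.65), whose arrays reached into the range of day 5 CD11b DC.

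Stfa2, the neighbouring gene, rose in Langerhans cells. They read 3.24, 3.14 and 3.37 untreated, 8.95, 8.57 and 8.23 at day 5, and 5.07, 6.58 and 5.03 at day 11. The 3 groups did not overlap, with day 5 highest and day 11 between. Stfa2 rose by 5.34 ± 0.31 at day 5 (40.4-fold, adjusted p = 7.97e-16) and by 2.31 ± 0.31 at day 11 (4.96-fold, adjusted p = 4.93e-07). From day 5 to day 11 it fell by 3.03 on the log2 scale (SE 0.31, adjusted p = 9.59e-08, 1.54% of all genes fell there). It was called with Saa3 in moDC among the 16 member comparisons between the days; no member was called in MHCIIlow macrophages (0.398% of genes fell) or CD11b DC (0.706%).

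In the dermal populations Stfa2 lay below or near the filter threshold. Its mean was higher under treatment in every dermal comparison, but none of these changes passed the test in the main fit. The 15 untreated dermal arrays read 2.60 to 3.27, and the 24 treated dermal arrays 3.01 to 4.38. The highest treated values were 4.38 in MHCIIlow macrophages at day 5, 4.27 in MHCIIhi macrophages at day 11 and 4.08 in moDC at day 5. Above the threshold lay 1, 1 and 2 arrays of these groups. Changes ran from +0.26 in CD11b DC at day 5 (adjusted p = 0.705) to +0.86 ± 0.31 in moDC at day 5 (adjusted p = 0.0668). The moDC change passed with median-centred arrays (adjusted p = 0.0454) and without day 5 replicate 2 (0.0487). The Langerhans change exceeded the mean dermal change by 4.79 ± 0.35 at day 5 (adjusted p = 4.93e-13, 13.5% of all genes called) and by 1.80 ± 0.35 at day 11 (adjusted p = 0.000247, 12.4% called). The 5 responses differed by the F test at day 5 (adjusted p = 4.15e-11) and day 11 (0.00648). Without Langerhans day 11 replicate 2 the latter stood at an adjusted p = 0.0723.

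Stfa2 in Langerhans cells moved beside changes in the markers of keratinocytes, the neighbouring cells of the epidermis. The summed level of 19 keratinocyte markers was highest untreated (14.7 to 14.9) and lower at day 5 (12.97 to 13.8) and day 11 (13.2 to 13.9). Of 18 tested, 3 rose and 9 fell at day 5, and 3 rose and 7 fell at day 11. Krt15, of basal and hair follicle keratinocytes, fell by 3.88 at day 5, while the cornified envelope gene Sprr2d rose by 3.70 ± 0.68. Sprr2d had group means of 4.90, 8.60 and 6.84 in untreated, day 5 and day 11 Langerhans cells, the same order as Stfa2. The monocyte markers Ccr2 and Plac8 moved too, Plac8 from 3.52 to 8.11 and 4.86. The summed dendritic cell markers Flt3, Zbtb46 and Ccr7 stood at 7.61 to 8.26 untreated, 10.6 to 10.9 at day 5 and 9.44 to 9.81 at day 11, the same order as Stfa2 with no overlap, and all 3 rose on both days. The sum of 10 fibroblast markers was 7.98 to 9.10 untreated, 9.38 to 10.5 at day 5 and 8.83 to 9.77 at day 11, with 3 and 1 of them rising. The part of other cells in the Stfa2 values was not tested.

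The stefin A genes are close copies, and 2 further probe sets carry several of their symbols, so their signal cannot be given to a single gene. The probe set annotated to Stfa2l1 and Stfa2 had Langerhans means of 2.99, 8.70 and 5.88 untreated, at day 5 and at day 11, and at most 3.54 in every other group. It followed the course of the Stfa2 probe set. The probe set annotated to Cstdc6, Cstdc5 and Stfa1 had means of 3.28 to 5.21 untreated, highest in Langerhans cells, and 7.79 to 11.2 treated. It followed the course of Stfa3. Cross-hybridisation between these copies was not tested, so the Stfa2 and Stfa3 values may include signal of relatives.

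**Figure D4:**
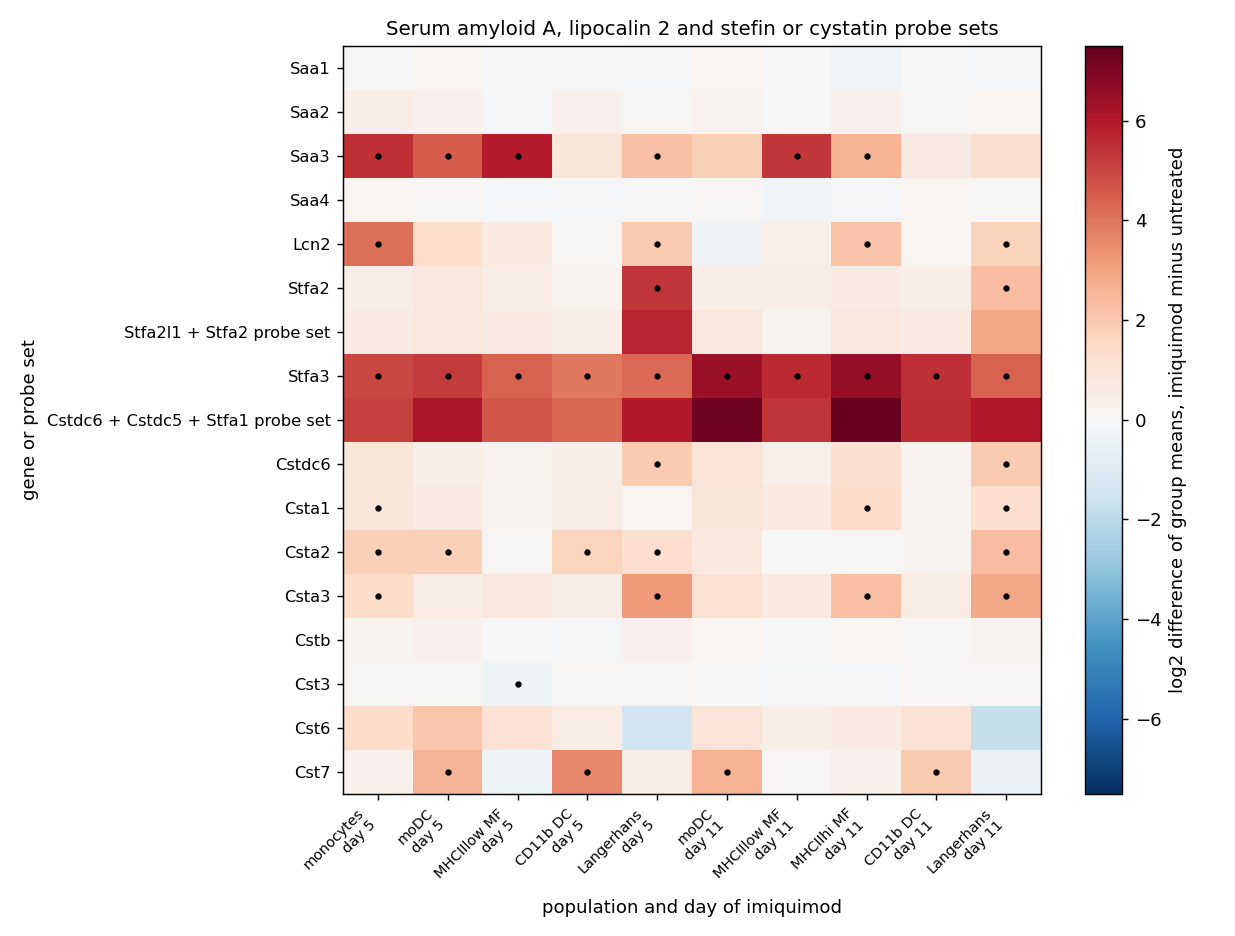
Difference of group means, imiquimod minus untreated (colour, log2), for serum amyloid A genes, Lcn2, and stefin and cystatin genes or probe sets (rows) in the 10 comparisons of population and day (columns); a black dot stands for a call at an adjusted p under 0.05, while the 2 probe sets of several genes and Saa1, Saa2 and Saa4 were not tested. Saa3 alone of its family is coloured, and the 2 probe sets of several genes repeat the rows of Stfa2 and Stfa3.

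Of the relatives, the other serum amyloid A genes gave almost no signal above the threshold. Saa1 read 2.26 to 2.84, Saa2 2.85 to 3.82 and Saa4 2.63 to 3.25 over the 48 arrays, with 1 array above the threshold among the 3 genes. Saa1 and Saa2 are the serum amyloid A genes of the liver. Among other stefins and cystatins, 7 of 13 listed genes were tested. Csta3 rose in Langerhans cells by 3.18 ± 0.46 at day 5 (adjusted p = 2.16e-06) and 2.85 ± 0.46 at day 11 (1.55e-05), in MHCIIhi macrophages by 2.26 ± 0.46 (0.000708) and in monocytes by 1.41 ± 0.46 (0.04). The day 5 monocyte arrays read 5.84, 3.64 and 3.42 for Csta3, with only 1 above the filter threshold. Csta2 rose in monocytes (1.78), moDC (1.81) and CD11b DC (1.68) at day 5 and in Langerhans cells at day 5 (1.25) and day 11 (2.30), each ± 0.41. Csta1 rose by 0.93 in day 5 monocytes, 1.39 in MHCIIhi macrophages and 1.23 in day 11 Langerhans cells, each ± 0.31. Only 1 array exceeded the threshold for Csta2 in day 5 Langerhans cells and for Csta1 in day 5 monocytes. Cystatin F (Cst7), a lysosomal inhibitor of cathepsin C, rose in CD11b DC (3.63 at day 5, 1.98 at day 11) and moDC (2.58 and 2.61), each ± 0.55. The widely expressed Cstb read 10.1 to 11.6 and Cst3 11.9 to 12.8 over the 48 arrays, and neither rose in any of the 10 comparisons, while Cst3 fell by 0.31 in day 5 MHCIIlow macrophages. Cst6 was not called in any of them. Cstdc6, named here after its values were seen, rose in Langerhans cells on both days (1.95 ± 0.43 each). At day 11 its Langerhans arrays read 3.82, 6.48 and 3.82, so replicate 2 alone was clearly above the filter threshold.

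The cysteine proteases that stefins inhibit were followed beside them. Of 7 tested in Langerhans cells, 2 rose and 1 fell at day 5 (median change of the list 0.15, of all genes 0.02), and 4 rose and 1 fell at day 11 (0.44, against 0.03). Cathepsin L (Ctsl) fell by 1.61 and 1.87, while cathepsin Z (Ctsz) rose by 1.59 and 1.18 and cathepsin C (Ctsc) by 1.18 and 0.96. In the 8 dermal comparisons, 0 to 1 rose and 0 to 1 fell.

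Other acute phase genes moved in both directions. Of 28 listed, 19 were tested, and 4 rose and 2 fell in day 5 monocytes, 3 and 1 in moDC, 2 and 2 in MHCIIlow macrophages, and 2 and 3 in CD11b DC and in Langerhans cells. The leucine-rich glycoprotein Lrg1 rose with Saa3 in monocytes (2.79), moDC (2.78) and MHCIIlow macrophages (2.33) at day 5. Complement factor B (Cfb) rose in all 5 populations at day 5 and the haptoglobin gene Hp rose in moDC by 2.30. The metallothionein Mt2 fell, for example by 2.02 in day 5 CD11b DC, and Orm1 fell by 1.86 in day 5 Langerhans cells. At day 11, 0 to 1 rose and 2 to 4 fell in each population. List medians lay between -0.08 and 0.18 in the 10 comparisons.

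The pathways that induce acute phase proteins were followed through 18 receptors, adaptors and transcription factors. Of 16 tested at day 5, 2 rose and 3 fell in monocytes, 0 and 2 in moDC, 0 and 5 in MHCIIlow macrophages, 0 and 2 in CD11b DC, and 1 and 3 in Langerhans cells. At day 11, 0 rose in any of the 5 populations, and 3 fell in moDC, 4 in MHCIIlow macrophages, 6 in MHCIIhi macrophages, 8 in CD11b DC and 5 in Langerhans cells. List medians lay between -0.73 and -0.09, and those of all genes between -0.04 and 0.03. Stat3 fell in monocytes (by 0.92), moDC (1.24) and CD11b DC (0.76) at day 5, and Rela, an NF-kB subunit, fell in MHCIIlow macrophages by 1.41. In Langerhans cells the feedback inhibitor Socs3 rose by 1.06 at day 5 and Cebpb fell by 1.42 at day 11. Of 7 receptors of the members' products that were tested, 0 to 2 rose and 0 to 2 fell in each of the 10 comparisons. The lipopolysaccharide receptor gene Tlr4 rose by 1.34 in day 5 monocytes, 0.99 and 1.14 in moDC at day 5 and day 11, and 1.30 in day 11 Langerhans cells. The scavenger receptor gene Scarb1 rose in MHCIIlow macrophages on both days (0.84 and 1.32), in MHCIIhi macrophages at day 11 (1.23) and in Langerhans cells at day 5 (1.07). Cd36, another scavenger receptor, rose by 1.87 in day 5 Langerhans cells and fell by 2.59 in moDC at day 5 and fell by 1.79 there at day 11. At day 11 Tlr2 fell by 1.14 in moDC, 0.86 in MHCIIlow macrophages, 0.98 in MHCIIhi macrophages and 1.23 in Langerhans cells. Slc22a17, the lipocalin 2 receptor gene, fell by 0.69 in day 5 CD11b DC.

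Among the members, correlations of group means over the 16 groups were 0.63 for Saa3 and Lcn2, 0.59 for Saa3 and Stfa3, 0.57 for Stfa2 and Stfa3, 0.56 for Lcn2 and Stfa3, 0.38 for Lcn2 and Stfa2, and 0.12 for Saa3 and Stfa2. The groups share a normalisation and many rises under imiquimod, and these values are descriptions. The genes most like Saa3 over the 16 group means were Gm5617 (r = 0.86), Lrg1 (0.84), Gm10637 (0.84), Rcbtb2 (0.82) and Lamtor5 (0.82). For Lcn2 they were Rnase2b (0.87), Chmp1a (0.86), Rabggta (0.86), T2 (0.86) and 5730522E02Rik (0.83). For Stfa2 they were Clec9a (0.98), Sprr2h (0.96), Tdgf1 (0.94), Nppb (0.92) and Ccl1 (0.91), all highest in day 5 Langerhans cells. For Stfa3 they were 2210016F16Rik (0.95), the calprotectin subunit S100a9 (0.95), Znhit1 (0.93), Ssna1 (0.93) and Psma6 (0.92). S100a9 ranged from a mean of 4.06 in untreated to 11.1 in day 5 Langerhans cells, whereas Psma6 ranged from 9.79 to 10.9. Some of the other genes varied little or lay near the filter threshold. Group means were 3.45 to 4.05 for Gm10637, 4.19 to 4.57 for T2, 3.66 to 4.48 for Ccl1 and 2.82 to 4.24 for Sprr2h. Lrg1 ranged more widely, from 3.87 to 8.53.

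By size among all 15591 genes, Saa3 had the largest rise in day 5 monocytes, and Stfa3 the largest in moDC and in MHCIIhi macrophages at day 11. Saa3 ranked 2 in day 5 MHCIIlow macrophages and 4 in day 5 moDC, and Lcn2 ranked 4 in day 5 monocytes. Stfa2 ranked 5 in Langerhans cells at day 5 and 64 at day 11, and its fall between these days ranked 4. In CD11b DC at day 5 Stfa3 ranked 4 whereas Lcn2 ranked 5504.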

How the data were processed

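The deposited values are log2 expression values per probe set that the authors had processed jointly by RMA, which corrects background, quantile-normalises and summarises probes, per the submitters' processing notes, which name RMA, oligo and limma without versions. RNA of 1 to 20 ng went through 2 rounds of amplification, per the labels. The labels name alternative temperatures for the dispase digestion without assigning them to samples. The full deposited table was used as it stands, and the values of a shorter deposited table (5958 probe sets) were identical. Precision is limited by there being 3 arrays a group.

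Of 35556 probe sets, 21789 carry 1 gene symbol, 1621 several and 12146 none. Genes were kept with a log2 value above the 40th percentile (3.77) on at least 3 arrays, and the probe set with the highest mean stood for a gene, leaving 15591. One limma model (lmFit, eBayes; limma 3.58.1, R 4.3.3) with 16 group means covered all 48 arrays, with 21 two-sided contrasts and 2 moderated F tests of equal response. Benjamini-Hochberg adjustment ran over the 15591 genes, separately for each contrast. The members, gene lists and tests were chosen with earlier results of these data known. Named beyond the members are all measured serum amyloid A and stefin or cystatin genes, up to 3 called genes with the largest changes per list and contrast, and the 5 genes most correlated with each member over the 16 group means.

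On simulated Langerhans day 5 data with 15591 genes the fit called 67.2% of genes changed by 1 log2 unit, 98.5% at 2 and 100% at 4, with 11 false calls (5.85% of calls). The simulation changed 67, 67 and 66 genes by these sizes, in that group only, with independent normal noise. In the real contrast 16.1% of all genes were called, so these rates need not hold for the real data. Marker levels are log2 sums of linear signal. Genes of the lists that had no probe set with a single symbol were not analysed here. Alternatives were other normalisations, filters, probe set rules and fits, replicate blocks, and each array left out.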

Additional observations from a re-analysis of the deposited data

Results flagged for a closer look

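The response to imiquimod differed between the 5 populations profiled for 3 of the 4 members, by an F test of equal change adjusted over all genes. The same test called 12.9% of all genes at day 5 and 10.7% at day 11. For Saa3 the adjusted p was 0.000131 at day 5, with every treated array above every untreated one in monocytes, moDC, MHCIIlow macrophages and Langerhans cells, and 0.0019 at day 11. For Lcn2 it was 0.000348 at day 5 and 0.0416 at day 11, the latter moving past the threshold under other settings. For Stfa2 it was 4.15e-11 at day 5 and 0.00648 at day 11. The Langerhans response of Stfa2 exceeded the mean dermal response by 4.79 on the log2 scale at day 5, with all 3 treated Langerhans arrays above every dermal array, and by 1.8 at day 11. The members were listed with these responses known. Untreated Langerhans and dermal arrays differ in title letter, and a batch that followed it cannot be told apart from these differences in response.

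Signal was also seen in probe sets outside the gene test because they carry several symbols. The probe set of Stfa2l1 and Stfa2 reached a mean of 8.7 in day 5 Langerhans cells against 2.99 untreated. The probe set of Cstdc6, Cstdc5 and Stfa1 reached 11.19 in day 11 Langerhans cells against 5.21 untreated. Neither can be given to a single gene.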

How the results depend on the processing

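Of 1012 values of single genes recomputed under other settings, 1001 kept their side of the threshold, 3 lost the test and 8 gained it. Of 936 values with single arrays left out, 897 kept their side, 28 lost the test and 11 gained it. Of the 28, 21 were the Lcn2 response at day 11. No change that passed the test in either fit reversed its direction. Direction was not compared for changes that passed in neither fit, and F tests have none. Day 11 against day 5 called 1 member comparison in place of 2 when only the groups compared were fitted, because Saa3 in moDC no longer passed; the cause was not tested. Leaving out single arrays gave 11 to 13 calls at day 5 (main 12), 10 to 11 at day 11 (10), 1 to 2 between the days (2), 2 to 2 between untreated populations (2) and 7 to 9 for differences in response, F tests included (8). Replicate numbers have no stated meaning: over 42 pairs with the same number the correlations of deviations ran from -0.095 to 0.234, 6 of them over 0.1, so the numbers were not taken as pairing. With the replicate block, as a fixed term or as a random one (consensus correlation 0.034), the counts stayed at 12, 10, 2, 2 and 8, and no call changed. Each group has 3 arrays, and the Langerhans rises of Saa3 and Lcn2 rest on replicate 2.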
